A study of Mus musculus with 14 samples.

Results

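Interferon-stimulated genes were described in bulk RNA-seq of 14 single cell-derived clones of mouse skeletal stromal cells. The set holds 47 genes of the 55427 in the annotated tables, named by gene symbol, and it was chosen because Ifit3 was among the genes that were lowest in Trp53-deleted clones relative to wild-type clones. Values of the deleted clones against the wild-type clones are therefore a description here. The same fit was run on them, with its calls given beside the share of all genes called, and only the comparison between the 2 groups of deleted clones is read as a test. Of the 47 genes, 46 were in the count table of 30503 genes, and 41 were among the 17358 genes with enough counts to be tested. The 6 genes not tested were Ifnb1, Zbp1, Oas1a, Oas2, Oas3 and Mx1.

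All clones were tdTomato+ cells of femoral bone marrow that carried Fgfr3-creER, in which Fgfr3 regulatory sequences drive a tamoxifen-dependent Cre, and R26R(tdTomato/+), and all mice received tamoxifen at postnatal day 21 (P21). Fgfr3-WT (P23) was 5 clones isolated at P23 and expanded to passage 8. Fgfr3-p53 cKO (P28) was 5 clones that also carried Trp53 fl/fl, isolated at P28 and expanded to passage 8. Fgfr3-p53 cKO (P4M) was 4 clones of that same genotype from 4-month-old mice, sequenced at passage 6 to 8. The paper's methods give passage 6 to 8 for the cKO clones of both ages. The WT clones carried no floxed Trp53, and each library was 1 clone that had grown in culture for many passages. The paper reports that cKO clones grew faster in culture than WT clones, and that a larger share of them survived the passages. Equal passage is therefore not equal time in culture. Both that time and survival in culture went with genotype, and their part in the differences from WT was not tested. The labels do not say which clones came from the same mouse, so p-values measure the spread between clones. The sample names in the count table carry one leading number for every WT clone and another for every cKO clone. What that number stands for is not stated in the sources used here, and it cannot be told apart from genotype. Total counts per clone ranged from 25688946 to 52857424, with a median of 27447973 in WT, 45728793 in P28 and 48642222 in P4M. Trp53, the deleted gene, was at 49.9 to 68.2 CPM (counts scaled to library size) in WT, 2.18 to 2.84 in P28 and 1.72 to 2.37 in P4M, and each group matched its label. Of 10 skeletal stromal markers, between 6 and 10 were at 1 CPM or more in every clone. Their summed level was 2794 to 11993 CPM in WT, with Vim the most abundant, and 15221 to 36474 CPM in cKO, with Col1a2 the most abundant. WT and cKO did not overlap in that sum, and its part in the differences between them was not tested.

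Type I interferons bind a receptor made of IFNAR1 and IFNAR2, whose kinases activate STAT proteins, STAT2 among them. STAT2 joins IRF9 in a complex that binds the interferon-stimulated response element (ISRE), a short element built of repeated GAAA letters, and raises transcription of genes whose products limit viral replication. Interferon itself is made after cytosolic sensors such as RIG-I (Ddx58) and MDA5 (Ifih1) detect foreign nucleic acid and activate IRF3 and IRF7. Many of the same genes are also transcribed at a low, tonic level in cells without infection, and IFIT proteins, among the most responsive products, bind foreign or unmodified RNA.

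The 4 IFIT genes measured lie within one stretch of chromosome 19 (mm10). Ifit2 spans chr19:34550694-34576419, Ifit3 chr19:34583531-34588731, Ifit3b chr19:34607970-34613401 and Ifit1 chr19:34640871-34650009, all on the plus strand. In the RefSeq promoter table (GRCm38.p6, from 250 bases before to 50 after the start), 36 of the 47 genes were matched, and 17 of these, 47.2%, held GAAA, any 2 bases and GAAA again on either strand (the ISRE letters). The same letters were in the promoters of 3.99% of the 27025 genes in the table. The letters TTCNNNGAA, a form of the gamma-activated site, were in 10 of the 36 (27.8%) and in 9.55% of all genes, and matches to the 2 motifs can overlap. The 4 windows printed here are 70 bases each, lie wholly before the annotated start, and show the match in Ifit3 and its near-copy Ifit3b, which had the lowest log2 differences of cKO from WT, beside Ifit1 and Isg15, whose levels overlapped between groups. Capitals mark the ISRE letters on either strand, and each window is written 5′ to 3′ along its gene.
Ifit3, plus strand, chr19:34583359-34583428: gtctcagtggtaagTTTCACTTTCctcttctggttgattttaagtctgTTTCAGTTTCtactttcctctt
Ifit3b, plus strand, chr19:34607755-34607824: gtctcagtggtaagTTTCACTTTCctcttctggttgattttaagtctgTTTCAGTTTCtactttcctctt
Ifit1, plus strand, chr19:34640771-34640840: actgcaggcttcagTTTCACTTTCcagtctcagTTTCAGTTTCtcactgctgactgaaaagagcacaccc
Isg15, minus strand, chr4:156200841-156200910: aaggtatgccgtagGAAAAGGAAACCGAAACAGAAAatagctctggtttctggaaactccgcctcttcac
The Ifit3 and Ifit3b windows were identical at 70 of 70 bases. Isg15 held 3 overlapping matches, and the 3 other genes held 2 each. The windows of Ifit2, Xaf1, Oasl1, Oasl2, Cmpk2 and Irf3 did not hold these letters within the bases searched, and in Ifitm3 they lay only at or after the start.

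The data were first read along the pathway, beginning with the ligand and its receptor. Ifnb1, which encodes interferon beta, was listed at 0 TPM (a level scaled to gene length and library size) in all 14 clones. None of 19 other interferon ligand genes had enough counts to be tested. Ifnar1, one receptor chain, was at 32.3, 44.4, 38.5, 43.1 and 39.9 CPM in WT, at 53.3, 34.6, 50.2, 57.3 and 65.8 in P28, and at 45.3, 44.4, 39.6 and 44.7 in P4M. Ifnar2, the other chain, was at 21, 48.3, 28.6, 61.8 and 34.7 CPM in WT, at 29.7, 17.2, 22.7, 28.6 and 32.7 in P28, and at 27.0, 30.7, 26.6 and 29.5 in P4M. The 3 groups overlapped for both chains, and neither chain passed the test between the cKO groups (edgeR adjusted p = 0.331 for Ifnar1 and 0.826 for Ifnar2).

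The transcription factors of the pathway did not share one pattern. Irf3, the factor that cytosolic sensors activate first, was at 58.1, 59.0, 36.9, 65.6 and 64.8 CPM in WT, at 23.4, 24.4, 25.2, 18.4 and 18.3 in P28, and at 15.4, 21, 14.7 and 16.1 in P4M. Every cKO clone was below every WT clone, and the difference of cKO from WT was -1.57 on the log2 scale (SE 0.15). Stat2, a part of the ISRE-binding complex, was at 30.2, 28.1, 39.8, 77.0 and 37.7 CPM in WT, at 35.9, 27.9, 40.5, 12.4 and 13.3 in P28, and at 15.8, 10.4, 19.6 and 17.5 in P4M. All P4M clones were below all WT clones, whereas the P28 clones fell into a set near WT and a pair near P4M. Irf9, the DNA-binding member of that complex, was at 15.8, 16.1, 24.3, 32.4 and 12.6 CPM in WT, at 33.0, 24.2, 36.5, 15.1 and 21.5 in P28, and at 18.8, 16.2, 24.8 and 17.1 in P4M, with all groups overlapping. Irf7, itself induced by interferon, was at 1.43, 4.63, 3.92, 17 and 2.65 CPM in WT, at 3.79, 1.29, 5.33, 0.786 and 1.90 in P28, and at 2.91, 2.09, 2.75 and 1.01 in P4M. Its WT value was carried by replicate 4. Irf1, which also responds to interferon gamma, was at 13.5, 21.8, 20.3, 15.3 and 25.9 CPM in WT, at 19.5, 15.7, 24.0, 26.9 and 26.2 in P28, and at 19.3, 22.9, 26.4 and 25.7 in P4M. None of the 5 factors passed the test between the cKO groups, and their log2 differences there ran from -0.71 for Stat2 to 0.07 for Irf1.

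The nucleic acid sensors did not show the pattern of Irf3. Ddx58 differed by -0.14 (SE 0.32) and Ifih1 by -0.09 (SE 0.56) on the log2 scale between cKO and WT. Dhx58, a regulatory relative of both, differed by 0.75 (SE 0.47), Ifi204, a DNA sensor, by 0.56 (SE 0.47), and Eif2ak2, the RNA-activated kinase PKR, by -0.38 (SE 0.26). None of these 5 was called in that comparison. Eif2ak2 was at 12.3, 36.3, 34.3, 49.3 and 59.2 CPM in WT, at 49.2, 32.3, 47.5, 34.3 and 40.2 in P28, and at 20.3, 21.6, 22 and 21.6 in P4M. Every P4M clone was below every P28 clone and above the lowest WT clone. Its log2 difference was -0.84 (SE 0.32) in P4M against WT, where it was called lower, a call that was lost under relative log expression scaling in place of TMM, with no filter, with only the groups compared and in 13 of the 14 fits that left out a clone. It was -0.93 (SE 0.32, edgeR adjusted p = 0.0926) in P4M against P28, where it did not pass but was called with only the groups compared. Ifi204 shares 20.0% of its 50-base stretches with other genes, so its counts are uncertain.

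Ifit3 and Ifit3b held the widest differences below WT among the 41 tested genes in the comparison of all cKO clones with WT, whereas in P28 alone Trim30a (-5.03 on the log2 scale) lay below Ifit3b (-3.59). Ifit3 was at 23.1, 419, 231, 1236 and 68.2 CPM in WT, at 8.07, 3.42, 22.1, 3.67 and 4.43 in P28, and at 1.61, 1.30, 2.45 and 1.20 in P4M. Ifit3b, its near-copy, was at 10.2, 44.4, 22.9, 99.1 and 23.0 CPM in WT, at 4.60, 1.24, 8.05, 1.01 and 1.64 in P28, and at 0.254, 0.455, 0.395 and 0.263 in P4M. For both genes the 3 groups did not overlap in CPM, with WT highest and P4M lowest. In TPM the groups of Ifit3b stayed apart, whereas 1 P28 clone of Ifit3 (24.4 TPM) lay above the lowest WT clone (21.9 TPM). Ifit2, which binds RNA and restricts viruses in the same family, was at 99.6, 104, 69.5, 145 and 51.2 CPM in WT, at 21.9, 21.2, 27.9, 24.4 and 12.6 in P28, and at 6.09, 7.17, 8.04 and 10.2 in P4M. Its groups did not overlap either, and they held the same order. Ifit1, which recognises RNA caps that lack methylation, was at 0.358, 5.82, 6.43, 77.9 and 2.37 CPM in WT, at 11.2, 2.96, 27.6, 1.49 and 5.97 in P28, and at 3.65, 2.16, 3.79 and 1.47 in P4M, and its groups overlapped. Per length, the median level of Ifit3 was 211 TPM in WT, 4.95 in P28 and 1.37 in P4M, and that of Ifit2 was 40.5, 10.2 and 3.06 TPM. In WT the median Ifit3b level was 18.2 TPM and that of Ifit1 3.24 TPM.

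**Figure D1:**
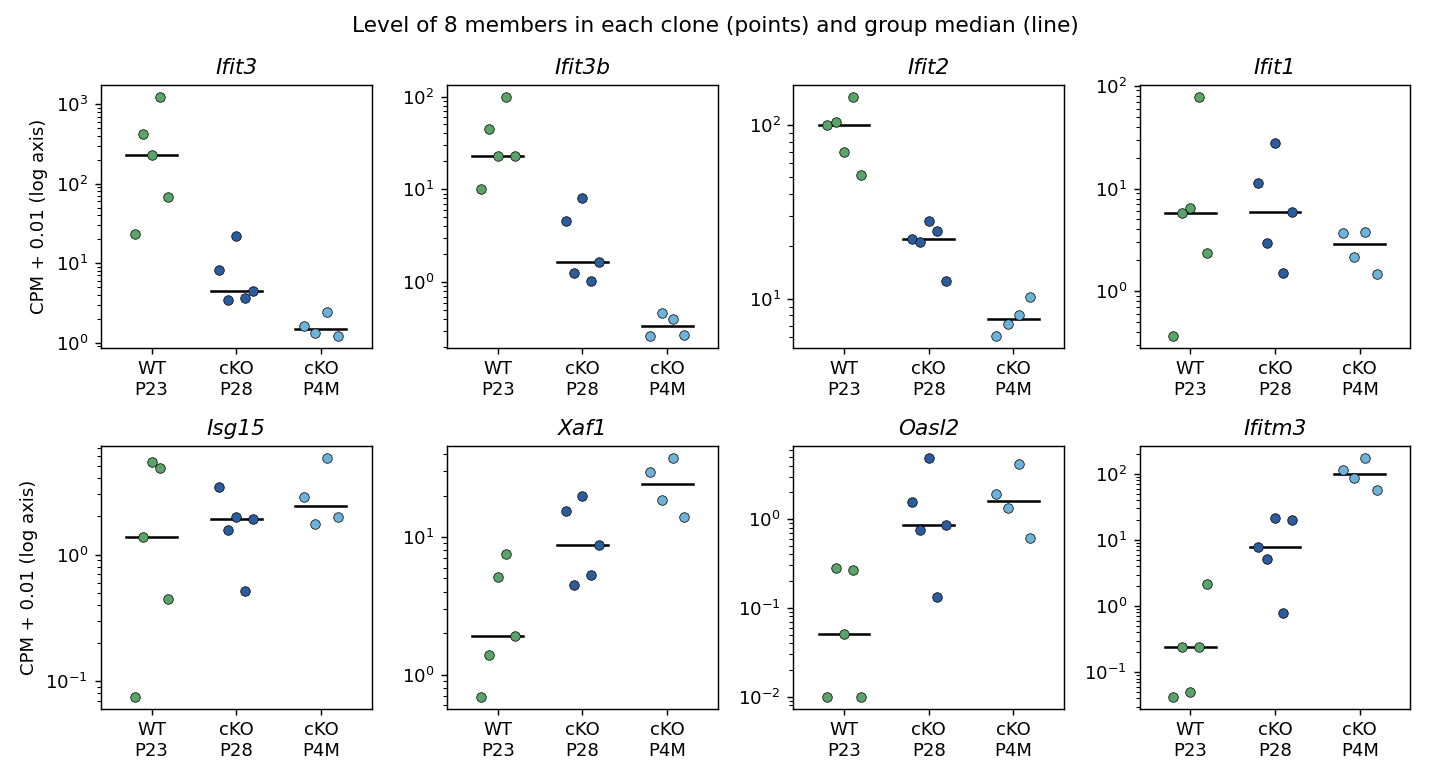
Level of 8 genes in each clone (points, CPM + 0.01 on a log axis) in Fgfr3-WT (P23), Fgfr3-p53 cKO (P28) and Fgfr3-p53 cKO (P4M), with the group median as a line. On this scale Ifit3, Ifit3b and Ifit2 step down across the groups without overlap, Ifit1 and Isg15 overlap, and Xaf1, Oasl2 and Ifitm3 are higher in P4M than in WT clones, with P28 overlapping WT.

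Against WT, cKO clones differed by -6.74 (SE 0.84) for Ifit3, -5.22 (SE 0.61) for Ifit3b and -2.85 (SE 0.24) for Ifit2 on the log2 scale. The difference for Ifit1 was -1.83 (SE 0.93), and without WT replicate 4 it was 0.48. Without that same clone the Ifit3 difference was -5.65. Ifit3 and Ifit3b share much of their sequence: 51.2% of the 50-base stretches of Ifit3 occur in Ifit3b, and 44.5% of those of Ifit3b in Ifit3. The paper's methods state that ambiguously mapped reads were not counted. Whether the deposited counts follow that rule is not known, for the reason given with the processing, so the values of each gene are uncertain. The ratio of Ifit3 to Ifit3b counts was 2.27 to 12.5 in WT, 1.75 to 3.64 in P28 and 2.85 to 6.36 in P4M.

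Of the 41 tested genes, 16 were called between cKO and WT, 5 higher and 11 lower, beside 48.8% of all genes tested (23.1% higher and 25.7% lower); this contrast chose the set, so nothing is read from the count. The P28 clones had 13 of 41 called against WT (5 higher, 8 lower) beside 38.9% of all genes (19.2% higher and 19.7% lower), and the P4M clones 17 of 41 (5 higher, 12 lower) beside 45.9% (22.3% higher and 23.6% lower). These comparisons share the WT clones. The number called higher in P28 ran from 3 to 6 when a clone was left out. With at least 10 counts in every clone, 1 was called higher in cKO and 1 in P4M. Cmpk2, Ifitm3, Oasl1 and Oasl2 were untested there, so those numbers are not a loss of calls. With only the groups compared, 1 was called higher in P28, where Cmpk2 and Xaf1 lost their calls and Oasl1 and Oasl2 were untested. The median log2 difference of the 41 genes was -0.32 between cKO and WT, beside -0.05 over all genes tested. Without WT replicate 4 the median was 0.10, so its sign rested on that clone.

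The other genes called lower between cKO and WT were led by Trim30a, a TRIM protein that limits signalling downstream of Toll-like receptors. Trim30a was at 7.69, 13.7, 18.2, 1.91 and 12.3 CPM in WT, at 0.581, 0.0717, 0.398, 0 and 0.589 in P28, and at 0.877, 1.55, 0.296 and 1.17 in P4M, and no cKO clone reached the lowest WT clone in CPM. In TPM the highest P28 clone (0.78) was above the lowest WT clone (0.63). Its difference was -4.25 (SE 0.71). Rtp4, a regulator of interferon responses, differed by -1.72 (SE 0.47), and Lgals3bp, a secreted glycoprotein, by -1.66 (SE 0.32). Gbp7 (-1.39, SE 0.41), Ifi27 (-1.13, SE 0.29), Stat2 (-1.07, SE 0.32) and Herc6 (-0.76, SE 0.17), the mouse ligase for ISG15, made up the rest with Irf3, Ifit3, Ifit3b and Ifit2. Without WT replicate 4 the Stat2 difference was -0.74 and was no longer called, the one call of the 16 lost on leaving out a single clone.

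In the opposite direction, 5 genes were called higher between cKO and WT. Ifitm3, a membrane protein that blocks viral entry, was at 0.0326, 0.230, 0.0405, 0.228 and 2.18 CPM in WT, at 7.79, 5.16, 21.5, 0.786 and 20.0 in P28, and at 114, 88.0, 176 and 57.8 in P4M. All P4M clones were above all P28 clones, and 1 P28 clone lay below the highest WT clone. Xaf1, a pro-apoptotic protein, was at 0.684, 1.38, 5.14, 7.57 and 1.90 CPM in WT, at 15.5, 4.45, 20.0, 5.28 and 8.76 in P28, and at 29.6, 18.5, 37.6 and 13.9 in P4M. Cmpk2, a mitochondrial nucleotide kinase, was at 0.0977, 0.191, 0.202, 0.313 and 0.514 CPM in WT, at 0.129, 0.335, 1.49, 1.23 and 1.02 in P28, and at 1.75, 1.91, 2.86 and 1.48 in P4M. In CPM the P4M clones of Xaf1 and Cmpk2 lay above every WT clone, and the P28 clones overlapped WT. In TPM Xaf1 overlapped, at 11.1 to 33.5 in P4M and 0.8 to 12.8 in WT. The differences of cKO from WT were 6.03 (SE 1.07) for Ifitm3, 2.29 (SE 0.59) for Xaf1 and 2.29 (SE 0.57) for Cmpk2. Over 19 alternative fits the Ifitm3 difference ran from 5.71 to 7.97.

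Both 2′-5′-oligoadenylate synthetase-like genes with enough counts to be tested were higher in cKO at low levels. Oasl2 was at 0, 0.268, 0.0405, 0.256 and 0 CPM in WT, at 1.55, 0.741, 4.91, 0.121 and 0.845 in P28, and at 1.89, 1.32, 4.17 and 0.601 in P4M, and the P28 and WT clones overlapped in CPM. Oasl1 had 1 count over the 5 WT libraries and 198 over the 9 cKO libraries. That is a ratio of 67.2 after scaling to library size, with a 95% interval of 11.9 to 2670 that covers counting error only. Fewer cells with these transcripts and less RNA per cell cannot be told apart in bulk samples.

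**Figure D2:**
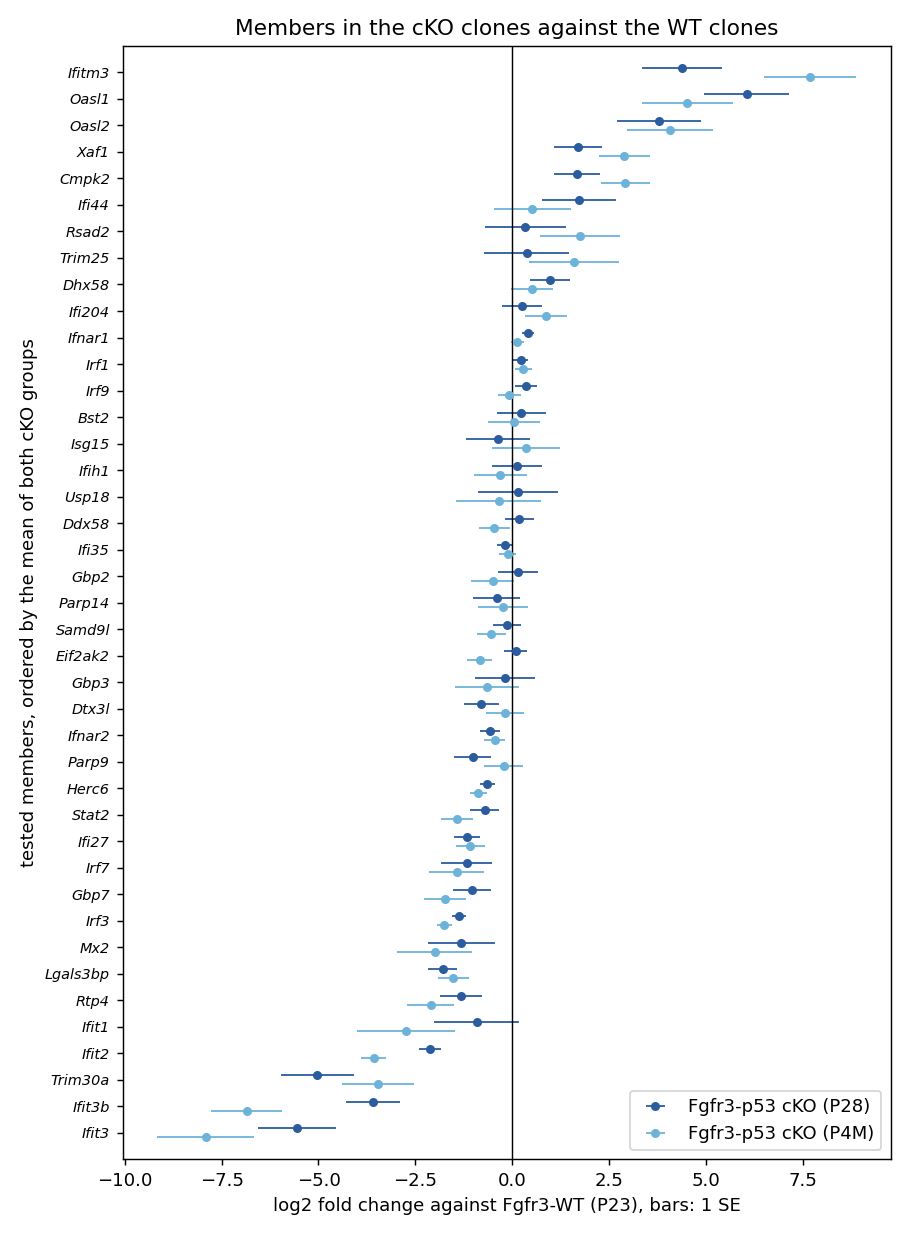
Log2 fold change of the 41 tested genes in P28 (dark) and P4M (light) clones against WT clones, with bars of 1 SE, ordered by the mean of both cKO groups. Ifit3, Ifit3b, Trim30a and Ifit2 lie far to the left and Ifitm3, Oasl1, Oasl2, Xaf1 and Cmpk2 to the right; the 2 cKO groups share their WT clones, and the fitted value of Oasl1 rests on 1 WT count.

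Isg15, the ubiquitin-like protein attached to targets by Herc6, was at 0.0652, 1.38, 5.38, 4.78 and 0.435 CPM in WT, at 3.42, 1.55, 1.99, 0.504 and 1.90 in P28, and at 2.84, 1.73, 5.83 and 1.97 in P4M. Its cKO clones lay within the WT range but for 1 P4M clone, and its difference of cKO from WT was -0.00 (SE 0.71). Usp18, which removes ISG15, differed by -0.10 (SE 0.91). The remaining tested genes were not called between cKO and WT. Trim25, a ligase that modifies RIG-I, ran from 0 to 33.6 CPM among the WT clones alone, from 3.82 to 31.5 in P28 and from 16.5 to 41.7 in P4M. Bst2, or tetherin, which holds budding virions at the cell surface, ran from 3.81 to 29.2 CPM in WT, 3.95 to 30.5 in P28 and 8.29 to 24.0 in P4M. Parp9 and its partner Dtx3l overlapped across the groups, as did Parp14, Gbp2, Gbp3, Ifi35, Ifi44, Samd9l, Mx2 and Rsad2. The genes with too few counts to test were at most 0.336 CPM for Zbp1, 0.257 for Oas2, 0.384 for Oas3 and 0.517 for Mx1. Oas1a peaked in P4M replicate 3 with 1.54 CPM, while no other clone exceeded 0.318, and it shares 57.6% of its 50-base stretches with Oas1g, so its counts are uncertain. Genes of the set that are usually read together thus lay at different places: in CPM, Ifit3, Ifit3b and Ifit2 were below WT in every cKO clone, Ifit1 and Isg15 overlapped it, and Ifitm3 and Xaf1 were above it in every P4M clone, with P28 overlapping. In TPM, Ifit3b, Ifit2 and Ifitm3 kept these places, whereas Ifit3 in P28 and Xaf1 in P4M overlapped WT.

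The test that the choice of the set did not use compared P4M with P28 clones. In this contrast 2 of the 41 genes were called, both lower in P4M, beside 7.22% of all 17358 genes tested (3.34% higher and 3.88% lower), so the share of the set was near that background. Ifit2 fell by 1.45 on the log2 scale (SE 0.30, edgeR adjusted p = 0.0147), and Ifit3b fell by 3.27 (SE 0.79, adjusted p = 0.0276). The P4M clones of both genes were below every P28 clone. Ifit3, at -2.34 (SE 0.96, adjusted p = 0.145), and Ifit1, at -1.83 (SE 1.21, adjusted p = 0.364), did not pass. Ifitm3 was at 3.30 (SE 0.95, adjusted p = 0.0520) and did not pass. Ifit3 and Ifitm3 were both called by DESeq2 and by edgeR with only the P28 and P4M clones, Ifit3 lower and Ifitm3 higher in P4M. Across the 41 genes, 17 differences were positive and 24 negative, and their median was -0.26, beside -0.01 over all genes tested.

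**Figure D3:**
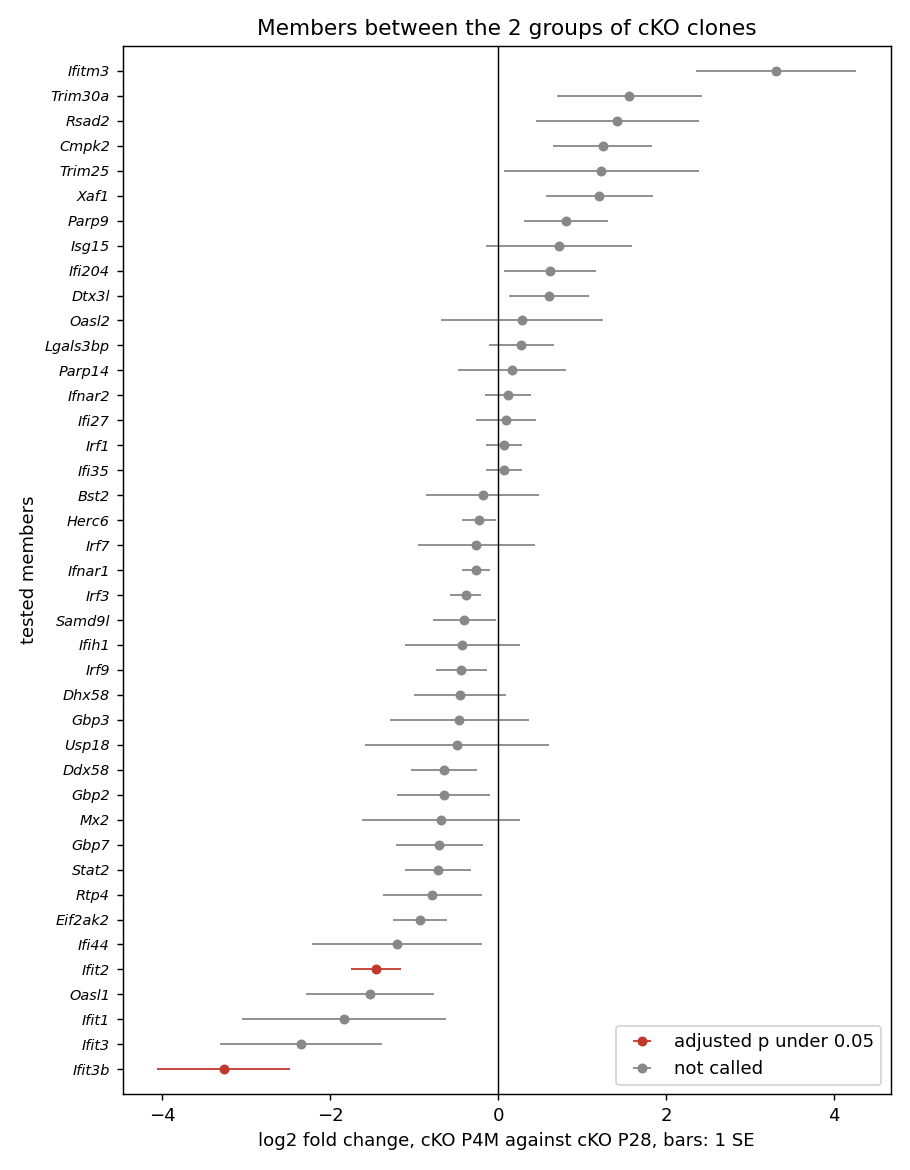
Log2 fold change of the 41 tested genes between Fgfr3-p53 cKO (P4M) and Fgfr3-p53 cKO (P28) clones, with bars of 1 SE; red points have an edgeR adjusted p under 0.05. Ifit2 and Ifit3b are the 2 red points, both to the left of 0.

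The 2 calls depended on single clones. Leaving out clones 1 at a time gave 0 to 4 calls. The calls over all genes moved in the same fits. They were 1254 of 17358 genes in the main fit, 480 of 17751 without P4M replicate 1 and 2132 of 17380 without WT replicate 1. Ifit2 lost its call only when P4M replicate 1 was left out (adjusted p = 0.0510, edgeR), and Ifit3b in 6 of 14 such fits, without P28 replicate 1 or 3 or any of the 4 P4M clones, with an adjusted p of up to 0.0811. Without WT replicate 1, which is in neither group, 4 genes were called, with Eif2ak2 and Ifitm3 added, and without WT replicate 3 or 5 Ifitm3 alone was added. With Ifit3 and Ifit3b counted as one gene, Ifit2 was the only gene called.

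Pathway genes outside the set were taken from a list of 119, of which 87 were tested. In P4M against P28 6 of them (6.9%) were called, all higher (edgeR), beside 7.22% of all genes called in either direction and 3.34% called higher, so the share called was near the background. With only the groups compared, 9 were called (6 higher, 3 lower), beside 3051 of all 16672 genes tested there. DESeq2 called 12 (9 higher, 3 lower), beside 2814 of its 30503 genes, a total that includes genes without an adjusted p. Jak2, a kinase of the interferon gamma receptor, was at 49.3, 43.1, 42.8, 80.3 and 57.4 CPM in P28 and at 124, 169, 97.0 and 109 in P4M, a rise of 1.19 (SE 0.25, adjusted p = 0.0157). Ifngr1, the ligand-binding chain of that receptor, was at 50.1, 53.5, 51.1, 44.7 and 39.0 CPM in P28 and at 89.2, 118, 71.8 and 68.6 in P4M, a rise of 0.86 (SE 0.23, adjusted p = 0.0362). For both genes no P4M clone overlapped the P28 clones. The GTPase Tgtp2 rose by 4.39 (SE 0.95, adjusted p = 0.0182), Ifi207, of the PYHIN family, by 2.53 (SE 0.71, adjusted p = 0.0480), and Slfn8, of the Schlafen family, by 5.0 (SE 1.16, adjusted p = 0.0235). Slfn2 had 3 counts over the P28 libraries and 74 over the P4M libraries, a ratio of 29.3 after scaling to library size (95% interval 9.66 to 145, counting error only). The 6 calls became 1 without P28 replicate 3, 2 without P28 replicate 1 or 4, 3 without P28 replicate 2 or P4M replicate 1, 2 or 3, and 9 (7 higher, 2 lower) without WT replicate 1. The calls over all genes, 1254 in the main fit, moved too. They became 496 without P28 replicate 3, 524 without P28 replicate 1, 799 without P28 replicate 4 and 2132 without WT replicate 1.

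By list, the 6 calls were 3 of 45 interferon-induced genes (6.67%), 1 of 13 interferon gamma-induced GTPases and regulators (7.69%), 2 of 15 genes of JAK-STAT signalling (13.3%) and 0 of 14 genes of nucleic acid sensing (0%). All genes stood at 7.22%, and nothing is read from counts this small. Against WT, 32 of the 87 were called in cKO clones, 12 higher and 20 lower, beside the 48.8% of all genes.

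Levels of many genes of the set were high or low in the same clones within a group, a pattern that the choice of the set did not use. WT replicate 4 was the highest WT clone for 25 of the 41 genes (61.0%) and for 20.2% of all genes tested, and WT replicate 1 was the lowest for 28 (68.3%, against 28.2% of all genes). Over all genes WT replicate 1 was also the WT clone most often highest, for 29.2%. P28 replicate 3 was the highest P28 clone for 27 genes (65.9%, against 14.6% of all genes), and P4M replicate 3 was the highest P4M clone for 27 (65.9%, against 30.7%). The genes of a clone share its library, so these shares are a description and were not tested. The median standard deviation of log2 CPM among clones was 0.945 for the set and 0.515 for all genes in WT, 0.973 and 0.326 in P28, and 0.448 and 0.307 in P4M.

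**Figure D4:**
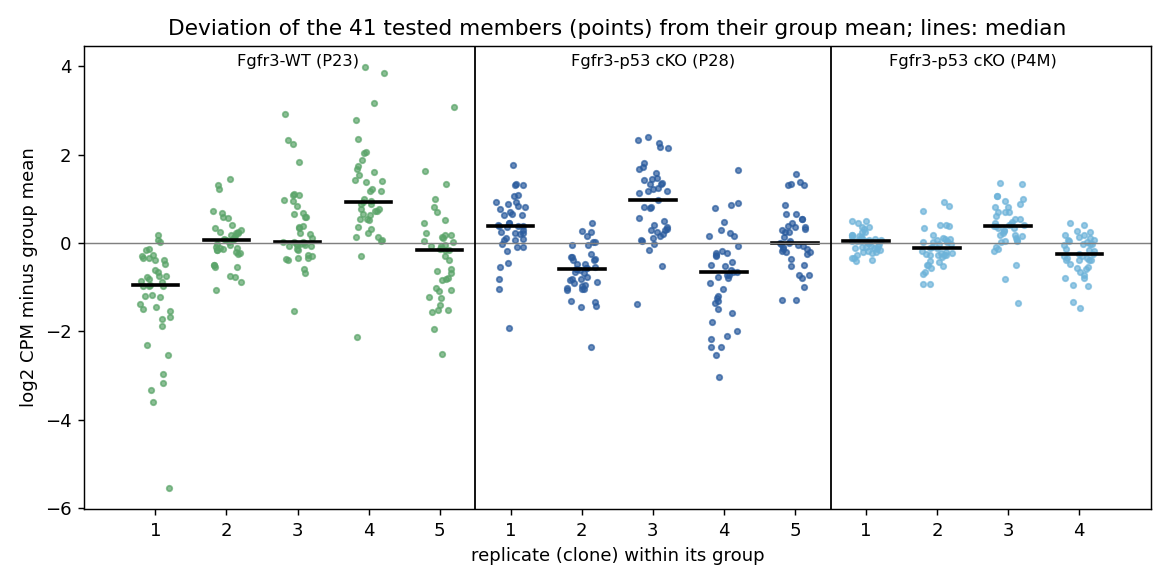
Deviation of each of the 41 tested genes (points, log2 CPM minus the mean of the group) in each clone, with the median as a line. WT replicate 4, P28 replicate 3 and P4M replicate 3 stand above 0, with medians of 0.93, 0.96 and 0.39, and WT replicate 1 below it, with a median of -0.94.

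Over the 820 pairs of genes, the median correlation of these deviations over the 14 clones was 0.451, and over all pairs of the 17358 tested genes it was 0. Of the 41 genes, 23 (56.1%) had a correlation of at least 0.7 with the mean of the others, and 1.04% of 12043 genes outside the set had one with the mean of the set. The points share libraries and depth, and the values are a description. Ifit1 stood highest at 0.956, followed by Samd9l, an antiviral restriction factor, at 0.925, the guanylate-binding protein gene Gbp3 at 0.923, and Irf7 and Xaf1 at 0.919 each. Ifit3 was at 0.899 and Ifit3b at 0.896. The 7 genes below 0.3 were Irf3, Ifi204, Trim30a, Irf1, Ifit2, Cmpk2 and Herc6. Irf3 was at 0.042, Trim30a at 0.059 and Ifit2 at 0.190. The within-group pattern therefore set Ifit3 beside Xaf1, although Ifit3 was lower and Xaf1 higher in cKO than in WT. Ifit2 correlated at 0.46 with Ifit3, near the median pair of the set, and at 0.11 with Xaf1. Among the 12043 other genes, the nearest patterns included that of the interferon-induced GTPase gene Irgm2 (0.891). Genes on none of the pathway lists stood at like values, among them Spin4 (0.881), Fam149a (0.840), Pbdc1 (0.833) and Gab1 (0.828), all over the same 14 clones.

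**Figure D5:**
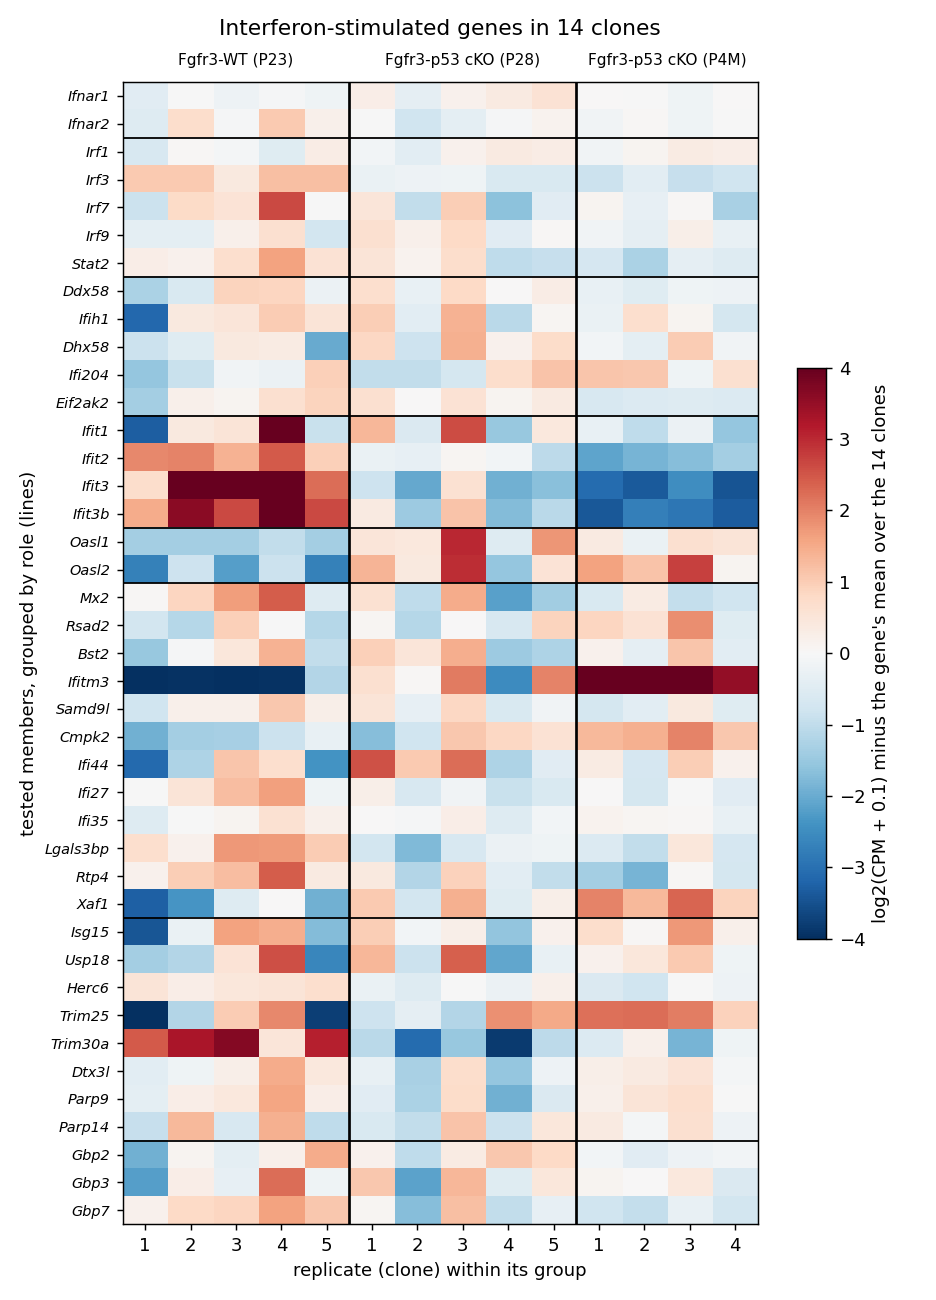
Log2(CPM + 0.1) of each of the 41 tested genes minus its mean over the 14 clones, with genes in rows grouped by role and clones in columns grouped by WT, P28 and P4M; colours stop at 4 in either direction. WT replicate 4 and P28 replicate 3 are the reddest columns of their groups, Ifit3 and Ifit3b are red in WT and blue in P4M, and Ifitm3 runs the opposite way.

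Markers of other cell types moved with some of these clones. The summed level of 12 myeloid markers was 17.7, 42.7, 66.8, 160 and 69.2 CPM in WT, between 13.1 and 26.3 in P28 and between 15.8 and 26.9 in P4M. WT replicate 4 was the highest and WT replicate 1 the lowest, as for the interferon-stimulated genes, and the most abundant marker in replicate 4 was Lyz2 at 90.6 CPM. In that clone the 4 markers Adgre1, Cx3cr1, Itgam and Tyrobp were at 0, and Adgre1 and Tyrobp were at 0 in the other WT clones too. Ptprc was at 0 in every WT clone but replicate 4, in which 4 markers were at 1 CPM or more, against 3 in each of the other WT clones. Lyz2 or Cd14 was the most abundant marker in every cKO clone. In P28 the myeloid sum did not follow the set. It was 13.8 CPM in replicate 3, the P28 clone most often highest for the set, and 26.3 in replicate 4, most often lowest. In P4M it was highest in replicate 3, at 26.9 CPM, the P4M clone most often highest for the set. The markers did not move one way: of the 5 tested between cKO and WT, Csf1r and Fcer1g were called higher and Cd68 and Lyz2 lower, and the median log2 difference was 0.15. In P4M against P28, Fcer1g alone was called, higher by 2.48 (SE 0.49, edgeR adjusted p = 0.0130). The part of these markers in the result was not tested. The summed level of 8 endothelial markers was at most 0.939 CPM in WT, 1.05 to 6.34 in P28 and 3.14 to 16.4 in P4M, with P4M replicate 3 the highest, mostly Kdr, and Cdh5 at 0 in every clone. Within P28 the endothelial sum was highest in replicate 2, which was the lowest P28 clone for 17 genes of the set (41.5%, against 20.4% of all genes). Lymphoid and erythroid markers summed to at most 0.143 and 0.228 CPM in any clone. The share of mitochondrial counts, a sign of RNA quality, was 2.18% to 3.78% in WT, 2.20% to 2.31% in P28 and 2.61% to 3.73% in P4M. Every P4M clone was above every P28 clone in that share, and its part in the differences between the cKO groups was not tested.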

How the data were processed

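SMART-Seq v4 libraries of 14 clones were sequenced as 50-base single-end reads. Per the methods, the authors aligned reads to mm10 with TopHat and Bowtie2 and counted unambiguous reads per Ensembl gene with HTSeq. The counts deposited are whole numbers, not normalized. Companion tables are named like expected counts of a quantifier that the methods do not name, so whether reads shared by near-copies were dropped or divided is not known. The authors also deposited TPM, a value per length and depth, from which levels between genes were read. Genes were filtered with filterByExpr, scaled by TMM and tested with the quasi-likelihood F-test of edgeR (4.0.16, R 4.3.3) over all 14 clones, with Benjamini-Hochberg adjustment over 17358 genes and a threshold of 0.05. Groups came from the labels, and the SE was the log2 fold change divided by the square root of F. CPM used the TMM library sizes. Correlations used log2 CPM after subtraction of each group mean.

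Named genes were Trp53, Ifit3, the ligand, receptors and factors, every gene called in P4M against P28, and the 5 lowest and 5 highest in cKO against WT. Other genes were picked for their role once values were known. The genes and lists were chosen with earlier results of these data known. Alternatives were DESeq2 (1.42.0), other scalings and filters, only the groups compared, and leaving out each clone. Scripts were tested on simulated data. For P4M against P28 the main fit called 13.4% of 97 simulated 2-fold changes and 60.2% of 98 simulated 4-fold changes. A gene that did not pass there may therefore still differ. Intervals and ratios of counts cover counting error only.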

Additional observations from a re-analysis of the deposited data

Results flagged for a closer look

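In 8 of 54 combinations of a named gene and a group, 1 clone stood far from the others by Dixon's criterion on CPM. Chance meets that criterion in about 1 of 20 groups of independent, normally distributed values. CPM are not on a log scale and the genes share clones, so that rate need not hold here and nothing is read from the count. WT replicate 4 was the distant clone for Irf7 (17 CPM, others at most 4.63), Stat2 (77.0, others at most 39.8), Ifit1 (77.9, others at most 6.43) and Oasl1 (0.0285, 1 count, others at 0). WT replicate 5 was distant for Ifitm3 (2.18 CPM, others at most 0.230) and WT replicate 3 for Irf3 (36.9 CPM, others at least 58.1). P28 replicate 3 was distant for Ifit3 (22.1 CPM, others at most 8.07), and P4M replicate 3 for Ifnar1 (39.6 CPM, others at least 44.4).

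The test of P4M against P28 itself was passed by Ifit2 (log2 difference -1.45) and Ifit3b (-3.27), and in the list of other pathway genes by Slfn2 (4.52, on 3 counts in P28), Slfn8 (5.0), Ifi207 (2.53), Tgtp2 (4.39), Jak2 (1.19) and Ifngr1 (0.86).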

How the results depend on the processing

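No paired analysis was possible because replicate numbers were given in accession order and nothing in the labels ties a clone of one group to a clone of another. In P4M against P28, 2 of the 41 genes were called in the main fit, beside 1254 of all 17358 genes. With only the groups compared, 5 (1 higher, 4 lower) were called, beside 3051 of 16672 genes. DESeq2 called 4 (1 higher, 3 lower), beside 2814 of 30503 genes, a total that includes genes DESeq2 gave no adjusted p. There was 1 call with Ifit3 and Ifit3b summed. When a clone was left out there were 0 to 4 calls, beside 480 to 2132 over all genes. The other pathway genes called were 6, 3 with at least 10 counts in every clone, 9 (6 higher, 3 lower) with only the groups compared, 12 (9 higher, 3 lower) with DESeq2, and 1 to 9 when a clone was left out. Total counts in cKO, P28 and P4M against WT stayed within 1.5 times of their values. With at least 10 counts in every clone, 1, 2 and 1 genes were called higher in these comparisons. That filter left Cmpk2, Ifitm3, Oasl1 and Oasl2 untested, so a lower number there is not a loss of calls. The 2 genes in P28 were Xaf1 and Ifnar1, and Ifnar1 was not called in the main fit. The number called higher in P28, 5 in the main fit, was 1 with only the groups compared and 3 to 6 when a clone was left out. With only the groups compared, Oasl1 and Oasl2 were untested in P28, and Cmpk2 and Xaf1 lost their calls. Between the cKO groups, 10 genes that were not called changed sign. Without scaling, Irf1 was at -0.0047 and Ifi35 at -0.013. With a clone left out, Irf1 ran from -0.018 to 0.18, Irf7 from -0.46 to 0.20, Oasl2 from -0.36 to 1.32, Mx2 from -1.17 to 0.29, Bst2 from -0.63 to 0.27, Ifi27 from -0.0013 to 0.29, Ifi35 from -0.0011 to 0.19, Lgals3bp from -0.11 to 0.44, Usp18 from -0.79 to 0.46 and Parp14 from -0.017 to 0.67. Leaving out P28 replicate 3 or P4M replicate 3 turned 8 of the 10. The cause was not tested.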
